A study of Mus musculus with 3 samples.

Results

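The 88 genes described here encode the proteins of the cytoplasmic ribosome. They were taken from the 52636 mouse genes of the count tables by their symbols, which had to be Rpl or Rps followed by a number (with at most a letter and a digit after it) or be Rplp0, Rplp1, Rplp2 or Rpsa. The 88 members comprised 49 genes named for the large subunit, 36 named for the small subunit and the 3 genes of the P stalk. In all, 77 were the canonical genes, 6 were paralogs (Rpl3l, Rpl7l1, Rpl10l, Rpl22l1, Rpl39l and Rps27l), and 5 were annotated as pseudogenes (Rps3a2, Rps3a3, Rpl6l, Rps12l1 and Rps4l).

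The cells were JM8.N4 mouse embryonic stem (ES) cells of the C57BL/6N strain, grown without feeders on gelatin in medium with serum, leukemia inhibitory factor and the inhibitors PD0325901 and CHIR99021. Both groups carried the cohesin subunit RAD21 fused to an auxin-induced degron. The control group received no auxin, and the auxin group received the auxin analog indole-3-acetic acid at 500 µM for 6 h, which degrades the RAD21 protein and leaves its messenger RNA (mRNA), so that mRNA counts do not check the depletion. Single cells were sorted into wells and read by Smart-SCRB, a plate assay that tags each mRNA molecule with a unique molecular identifier (UMI), and the question was how acute cohesin loss alters the relation between genes across cells. Each of 3 replicates held control and auxin plates of this 1 cell line.

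Each ribosome carries 1 copy of nearly every core ribosomal protein, so that cells make these proteins in matched amounts from separate genes on many chromosomes. Most of their mRNAs start with a C followed by a run of pyrimidines, the TOP motif (terminal oligopyrimidine), through which mTOR and LARP1 control their translation together. Growing cells express most of these genes.

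The members lay on 19 chromosomes, with 15 of them on chromosome 7, and 30 of them hosted small nucleolar RNA genes in their introns. To show the TOP feature, 30 bases around the RefSeq transcription start (15 on each side, build GRCm38.p6, the same assembly as mm10) are given for members with long pyrimidine runs, for members of high count with short ones, and for the low-count paralog Rpl39l, described below. The longest run of C and T that reaches within 5 bases of the start is in capitals, and it can reach beyond the 30 bases shown.
Rpl7a, chr2:26910792-26910821, plus strand: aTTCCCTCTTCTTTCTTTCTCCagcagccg
Rpl27a, chr7:109519180-109519209, plus strand: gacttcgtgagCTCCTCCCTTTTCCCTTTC
Rpl35, chr2:39005117-39005146, minus strand: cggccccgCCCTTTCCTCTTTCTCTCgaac
Rpl4, chr9:64173372-64173401, plus strand: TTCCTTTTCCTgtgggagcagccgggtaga
Rps6, chr4:86857353-86857382, minus strand: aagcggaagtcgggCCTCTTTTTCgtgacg
Rplp0, chr5:115559452-115559481, plus strand: gtcttcgggTTTCgaggaccgcctggttct
Rps3, chr7:99483695-99483724, minus strand: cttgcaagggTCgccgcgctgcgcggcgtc
Rpl41, chr10:128549154-128549183, minus strand: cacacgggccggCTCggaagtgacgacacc
Rpl39l, chr16:10170213-10170242, plus strand: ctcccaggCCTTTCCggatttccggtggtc
RefSeq starts matched 63 members and left 25 unmatched. A run of at least 8 pyrimidines reached within 5 bases of the annotated start in 21 of the 63 members, or 33.3%, against 9.63% of 27025 genes. The longest run measured 21 bases, in Rpl7a. Within 250 bases before and 50 bases after the start, on either strand, CCGGAAGT occurred in 12 members (19.0%, against 4.00% of all genes), AAGATGGC in 5 (7.94%, against 2.88%) and TATAAA in 6 (9.52%, against 14.2%). These matches describe 1 annotated start per gene, and a real start several bases away would change the run.

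Of 1536 wells on 16 plates, 1335 had more than 2600 detected genes. The 6 sets held 168 control and 169 auxin cells (replicate 1), 371 and 290 (replicate 2) and 85 and 84 (replicate 3). A further 168 cells stood on 2 plates of replicate 3 whose condition differed between the plate annotation and the source values of the study, and they entered no set. Median UMIs per cell ranged from 72317 to 187088 between sets, and the 6 sums from 6064936 to 50448320 UMIs. Well barcodes were reused, with 288 distinct barcodes each present on 2 to 12 plates, and each well was therefore identified by plate and barcode. As a check of the cell type, 8 ES cell markers were summed in CPM, the UMIs of a gene per 1000000 mouse UMIs of the set, and reached 10008 and 9341 CPM (replicate 1, control and auxin), 3922 and 2340 (replicate 2) and 7944 and 8458 (replicate 3). Replicate 2 was lowest in these markers. Sox2, which another gene overlaps on the same strand, was listed at 0 in replicates 2 and 3. Some genes overlapped by another gene on the same strand, Rpl13 among them, had counts in replicate 1 and none in replicates 2 and 3, and this limits comparisons of levels across replicates. The endoderm markers summed to at most 10.2 CPM in any set and the fibroblast markers to at most 8.41 CPM.

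The level of a member is given below as CPM of a sum, which counts molecules by their tagged end and needs no correction for length. Where a pair of values is given per replicate, control stands first and auxin second. In the mean of the 6 sums, 17 members stood at or over 1000 CPM, 49 between 100 and 1000, 17 between 10 and 100, and 5 below 10 CPM. Of the 100 genes with the most UMIs, 17 were members. The 10 highest gave 55.1% of all ribosomal protein UMIs, so that the share of the family was mostly a measure of these genes.

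Rpl8, a large-subunit protein near the peptidyl transferase centre, was the highest at a mean of 5027 CPM, with 5022 and 4933 CPM (replicate 1), 4754 and 4564 (replicate 2) and 5294 and 5594 (replicate 3). Its 6 values lay close together, with control and auxin values intermixed. Rplp0, the protein that anchors the P stalk where translation factors are recruited, had 4735 and 4933 CPM, 4314 and 4317, and 4991 and 4990 in the same order. Control and auxin were nearly equal within replicates 2 and 3. Rpl32 had 5744 and 5369 CPM, 4490 and 4001, and 3645 and 4456, and varied more widely than Rpl8 and Rplp0. Rpl4 had 3492 and 3459, 4891 and 4830, and 5527 and 5343 CPM, and thus its replicate 1 values lay below the other 4. Among small-subunit genes Rps3, which lines the mRNA entry channel, led with 4005 to 4598 CPM, and Rps14 had 2977 to 4315. Rplp1, of the acidic pair that forms the stalk, had 1909 to 2763 CPM. Its partner Rplp2 had 973 to 1555. Rpl41, whose product is the shortest ribosomal protein, had 1786 to 2994 CPM and the short coding length of 75 nt.

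**Figure D1:**
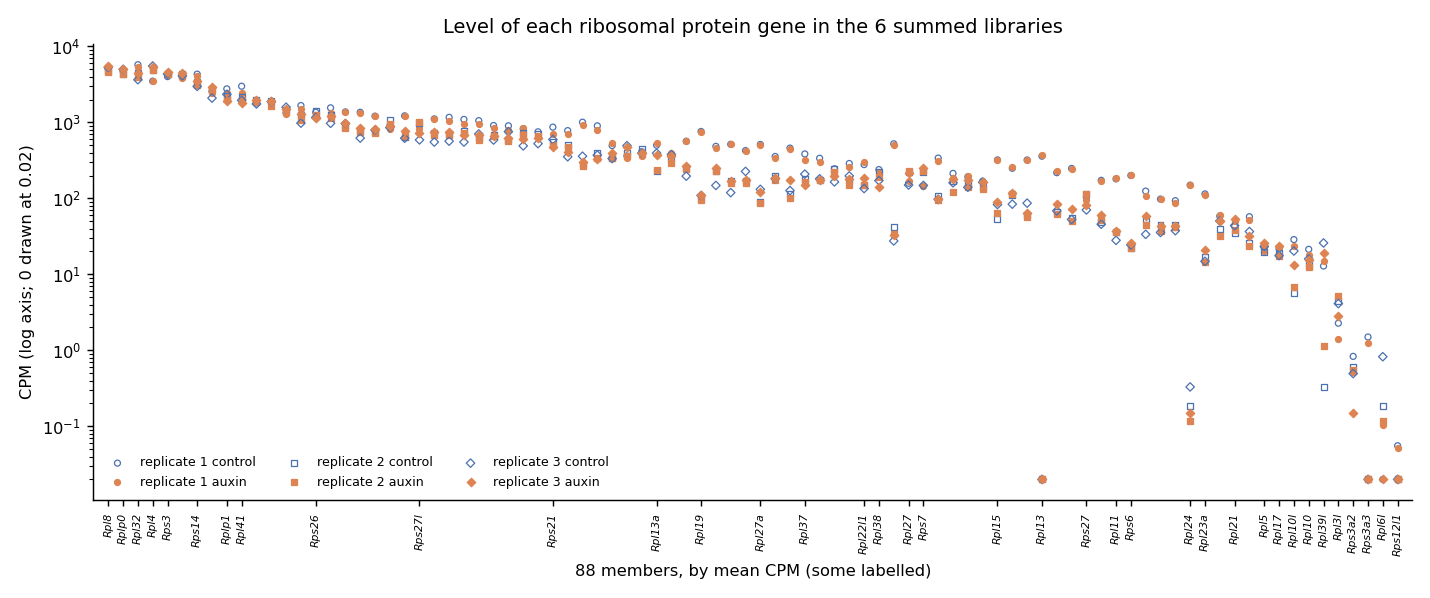
CPM of each of the 88 members (x axis, ordered by mean, with some of the members described in the text labelled) in the 6 summed libraries (y axis, log scale). Open symbols are control and filled symbols auxin, and circles, squares and diamonds are replicates 1, 2 and 3. Replicate 1 circles stand above the other symbols for many members below 1000 CPM, and Rpl13 and Rpl24 drop to or near 0 in replicates 2 and 3.

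The paralogs ranged from far below to above their canonical partners. Rpl3l, the muscle paralog of Rpl3, had 1.40 to 5.13 CPM against 294 to 391 CPM for Rpl3, and was counted in 2.96% to 8.33% of cells. Rpl10l, the testis paralog that replaces X-linked Rpl10 during male meiosis, had 28.7 and 23.6 CPM (replicate 1), 5.71 and 6.80 (replicate 2) and 20.3 and 13.2 (replicate 3). Rpl10 itself had 12.6 to 21.4 CPM, but 100% of the 50-base stretches of its 3′ end are shared with other loci, so the order of the pair is uncertain. Rpl39l, a paralog known from testis and ES cells, had 12.9 and 14.8 CPM (replicate 1), 0.326 and 1.13 (replicate 2) and 25.9 and 19.1 (replicate 3), against 173 to 337 CPM for Rpl39.

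Rpl39l was thus nearly absent from replicate 2. The log2 fold change of replicate 2 against replicate 1 was -4.69 (standard error 0.49, edgeR adjusted p 0.000111). It was counted in 5 of 371 control and 3 of 290 auxin cells there, and 48 of the 57 auxin UMIs came from 1 cell. In replicates 1 and 3 it was counted in 14.8% to 23.8% of cells, with 20 of 85 and 20 of 84 cells in replicate 3. Its 3′ end shares no 50-base stretch with another gene. Replicate 2 was also the replicate lowest in the summed ES cell markers. Whether the difference in Rpl39l and that in the markers are related was not tested.

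Rpl7l1, which acts in ribosome assembly, and Rpl22l1, the paralog of Rpl22, were counted in 94.6% to 100% of cells. Rpl22l1 had 135 to 304 CPM against 552 to 1095 for Rpl22, and Rpl7l1 had a mean of 402 CPM against 860 for Rpl7. Rps27l, a p53 target, stood above its partner in all 6 sums, with 589 to 1018 CPM against 70.4 to 115 for Rps27. The 3′ end of Rps27 is shared with other loci at 100% and that of Rps27l at 21.9%, so the counts of the pair are not equally certain. Rps4l, annotated as a pseudogene on chromosome 6, also exceeded X-linked Rps4x. Rps4l had 1649 to 1916 CPM and a UMI in 99.2% to 100% of cells of each set, and Rps4x had 736 to 1228 CPM. Of their 3′ stretches, 17.5% and 62.2% occur in another gene. The 4 other pseudogenes were the lowest members, each with a mean under 1 CPM.

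In a set of cells, the share of mouse UMIs taken by the 88 members was first computed per cell. The median share in control and auxin cells was 7.97% and 7.54% (replicate 1), 6.49% and 6.16% (replicate 2) and 6.14% and 6.78% (replicate 3). The control quartiles were 7.34% and 8.74%, 5.81% and 6.94%, and 5.79% and 6.77%. Auxin minus control was thus -0.428 and -0.326 percentage points in replicates 1 and 2 and 0.633 in replicate 3, with a mean of -0.0404, and the direction did not hold over replicates. Each difference was smaller than the quartile range of its cells. With each cell thinned to 20000 UMIs, the differences were -0.385, -0.365 and 0.67 percentage points.

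The plate medians showed the same split. In replicate 1 the control plates had 7.80% and 8.21% and the auxin plates 7.59% and 7.52%. In replicate 2 the 4 control plates had 6.33% to 6.69% and the 4 auxin plates 6.07% to 6.23%, so that the conditions did not overlap in either replicate. Replicate 3 rested on 1 plate each, and plate and condition cannot be told apart there. Its 2 plates of unsettled condition had 6.69% and 6.70%, near the auxin plate, and adding them one way or the other gave a replicate 3 difference of 0.389 or 0.374 percentage points.

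**Figure D2:**
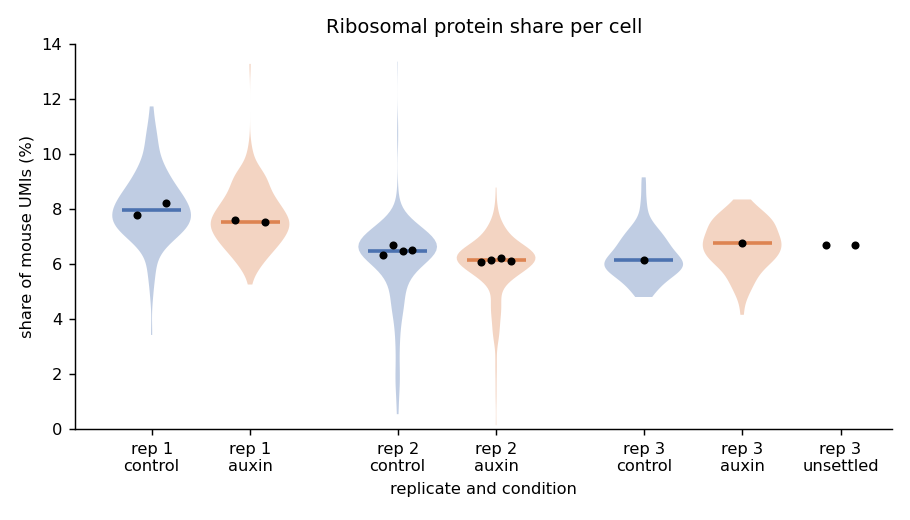
Share of mouse UMIs in the 88 members per cell (y axis, percent) by replicate and condition (x axis). Shaded shapes are the distribution over cells, coloured lines the median of the set and black points the median of each plate. Replicate 1 lies above replicates 2 and 3, and auxin lies below control in replicates 1 and 2 and above it in replicate 3.

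Cells of 1 set differed in this share by more than counting error. The coefficient of variation of the share was 13.0% to 24.3%, where the counts alone would give 1.11% to 1.52%. In replicate 2 the lowest control cell had 0.549% and the lowest auxin cell 0.148%. The lowest cell of the control and auxin sets of replicate 3 had 4.16%, and the lowest on its 2 plates of unsettled condition 2.38%. The shares of large- and small-subunit genes rose and fell together over cells, with Spearman correlations of 0.723 to 0.858 in the 6 sets (84 to 371 cells), and the median ratio of large to small was 0.904 to 0.967. Over the same cells the share correlated at 0.342 to 0.699 with the share of 15 other genes with TOP mRNAs, such as Eef1a1, the translation elongation factor. Correlations with the share of mitochondrial ribosomal proteins ran from -0.258 to 0.430, those with 37 ribosome biogenesis genes from -0.152 to 0.303, and those with the UMI count of the cell from -0.126 to 0.472. These shares come from the same libraries and the same total, and the correlations are given as a description.

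Control and auxin sums were then compared gene by gene. No member passed the test. Of 83 members tested with edgeR's quasi-likelihood test over 3 control and 3 auxin sums, 0 passed an adjusted p of 0.05, against 0% of all 17514 genes tested. At an unadjusted p under 0.05 the number was 0 of 83 members and 33 of 17514 genes, and DESeq2 also called 0 members. The members' median log2 fold change was -0.04, against -0.00101 over all genes tested. The median standard error of a member was 0.43 on the log2 scale in this fit, in which differences between replicates count as spread. With the replicate number as a block, which matches the pairing of the sums, it was 0.10, and 0 of 83 members were called, against 0.0171% of all genes (3 of 17514, with 0.00571% higher and 0.0114% lower). In that fit 7 of 83 members had an unadjusted p under 0.05, all lower after auxin, against 5.92% of all genes in either direction (1036 of 17514) and 3.01% lower. The 81 members with a mean of 10 CPM or more had blocked log2 fold changes from -0.30 to 0.34. The upper end was that of Rpl39l, which was nearly absent from replicate 2. A missed threshold does not show that the levels were equal. The 5 members not tested, Rpl13, Rpl24, Rps3a3, Rpl6l and Rps12l1, were at or near 0 in several sums.

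The 7 members were Rplp1, Rpl41, Rps2, Rps21, Rpl37a, Rpl37 and Rpl38. Rpl37, a zinc-binding large-subunit protein, had 384 and 316 CPM (replicate 1), 178 and 164 (replicate 2) and 209 and 152 (replicate 3). Auxin was below control within each replicate, while the values overlapped between conditions across replicates. Its blocked log2 fold change was -0.30 with a standard error of 0.090 and an adjusted p of 0.73 (edgeR). Rps21, a small-subunit protein, had 866 and 707 CPM, 549 and 509, and 595 and 469 in the same order, with a blocked log2 fold change of -0.26, a standard error of 0.076 and an adjusted p of 0.71 (edgeR). Rplp1 had 2763 and 2463 CPM, 2205 and 2016, and 2345 and 1909, and its auxin sums were 89.1%, 91.4% and 81.4% of control. Rpl41 was at 82.5%, 91.0% and 91.3% of control in replicates 1 to 3. Rpl37a, another zinc-binding protein, was at 87.2%, 85.8% and 88.4%, and Rpl38 at 91.9%, 86.2% and 83.5%.

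Lower values after auxin in all 3 replicates were seen for 22 of 83 members (26.5%, against 13.7% of all genes tested), and higher values in all 3 for 6 (7.23%, against 15.6%). The 6 were Rpl7, Rpl27, Rps7, Rpl15, Rps27a and Rpl21. Rps7 had 144 and 147 CPM (replicate 1), 223 and 226 (replicate 2) and 148 and 248 (replicate 3), so that its log2 fold change of 0.24 rested on replicate 3. Most members split by replicate, since 57 of 83 were lower after auxin in replicate 1 (45.0% of all genes tested), 69 in replicate 2 (46.0%) and 29 in replicate 3 (53.3%). The pattern lower in replicates 1 and 2 and higher in replicate 3 was that of 30 members (36.1%, against 8.40% of all genes tested). Without replicate 3, 74 of 86 members had a negative log2 fold change (50.6% of all genes tested), without replicate 1, 37 of 83 did (49.2%), and without replicate 2, 49 of 85 did (51.5%), with 0 members called in each.

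Outside the group above, the most negative fitted log2 fold changes were those of Rps3a2, Rpl10l and Rpl3l, all of low count. Rpl10l had the values given above, with a log2 fold change of -0.34 and a standard error of 0.80. The most positive were those of Rps7, Rpl21 (0.21), Rpl27 (0.18), Rpl22l1 (0.15) and Rpl17 (0.10). None had an adjusted p below 0.999 in edgeR's fit without the block.

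The members lower in all replicates included many of the shortest coding sequences, a pattern noticed after the values were seen. Of 11 members tested with up to 300 nt of coding sequence, 8 were lower after auxin in each of the 3 replicates, against 13.7% of all genes tested: Rpl41, Rpl39, Rps29, Rps28, Rpl38, Rps21, Rpl37a and Rpl37. The others were Rps27, Rps27l and Rpl39l. Among 10 such members with at least 10 CPM in each sum, the median log2 ratio of auxin to control was -0.14, -0.11 and -0.21 in replicates 1 to 3, and among 164 other genes of this length and level it was 0.0099, 0.030 and 0.15. For 22 members above 600 nt it was -0.00064, -0.050 and 0.024. Over the 78 members with a coding length and at least 10 CPM in each sum, Spearman's correlation of length with the log2 ratio was 0.519, 0.290 and -0.0455, so that the trend along the whole range was not seen in replicate 3. For 6129 other genes at this level the correlations were -0.0242, -0.0576 and -0.151. Genes are not independent replicates, and no test was made.

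Replicates differed far more than conditions. Most members had lower levels in replicates 2 and 3 than in replicate 1. In replicates 2 and 3, some genes overlapped by another gene on the same strand were listed at 0, among them 57 of 399 such genes with at least 50 CPM in replicate 1 (replicate 2) and 66 of 399 (replicate 3). The part of the counting in this result was not tested. In edgeR fits with condition as a term, 72 of 83 members were lower in replicate 2 than in replicate 1 and 0 were higher, against 20.3% and 30.3% of all genes tested (50.6% in either direction). In replicate 3 against replicate 1, 72 were lower, against 16.1% of all genes, and 1 (Rpl4) was higher, against 25.1% (41.2% in either direction). The members' median log2 fold change was -0.98 and -0.95, or -1.14 and -1.08 relative to the median of all genes. The share of mouse UMIs from 37 mitochondrially encoded genes was also higher in replicate 1, with medians of 4.70% and 4.46% (replicate 1), 2.26% and 2.10% (replicate 2) and 1.78% and 1.95% (replicate 3), and its part in the result was not tested. In replicate 3 against replicate 2, 6 members were higher (9.59% of all genes tested) and 3 were lower (7.89%), against 17.5% in either direction, with a median of 0.000293 for the members. Library sizes without TMM scaling factors raised the median of all genes from 0.16 to 0.53 and from 0.13 to 0.52, a change that moves each gene alike. They gave 56 lower and 4 higher members in replicate 2, against 11.7% and 41% of all genes, and 54 lower and 3 higher in replicate 3, against 7.15% and 36.4%. The 2 sums of a replicate are its only samples and share its counting, so the p-values cover only the spread left between these sums.

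**Figure D3:**
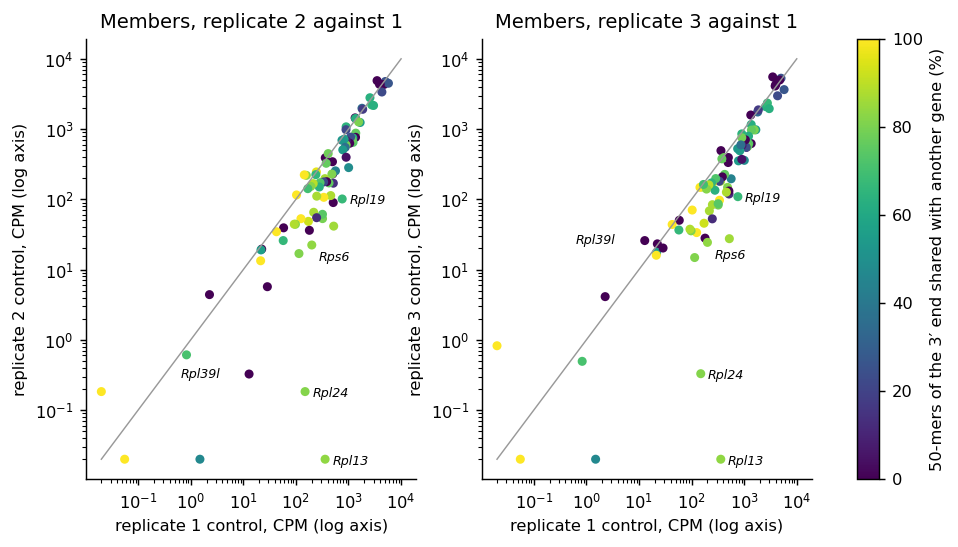
Each member's CPM in the control cells of replicate 2 (left) or 3 (right) on the y axis against replicate 1 on the x axis, both on log scales, with values of 0 drawn at 0.02. The grey line marks equal values and the colour is the percent of 50-base stretches of the 3′ end shared with another gene. Most members lie below the line, and the members far below it include ones that share few stretches and ones that share many.

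Rps6, the substrate of S6 kinase, had 200 and 204 CPM (replicate 1), 22.4 and 22.0 (replicate 2) and 24.4 and 26.2 (replicate 3). Its log2 fold changes against replicate 1 were -3.58 and -3.41 (standard errors 0.14 and 0.15, edgeR adjusted p 7.38e-07 and 2.21e-06). Rpl19 had 759 and 741 CPM in the same order, 101 and 95.0, and 109 and 111. Rpl23a, at the exit of the peptide tunnel, had 114 and 112 CPM, 16.9 and 14.6, and 14.8 and 20.9, and Rpl11, which binds MDM2, had 180 and 183, 36.2 and 35.9, and 28.0 and 36.8. In these 4 genes replicates 2 and 3 lay together and did not overlap replicate 1. Of the 50-base stretches in the 3′ end, 83.3% occur in another gene for Rps6, 80.9% for Rpl23a, 66.9% for Rpl19 and 0% for Rpl11. In all, 17 members fell by more than 2 log2 units from replicate 1 to replicate 2 and 13 to replicate 3.

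Several of the highest members fell from replicate 1 to replicate 2 by less than the median member. The log2 fold change was -0.31 for Rps3 (edgeR adjusted p 0.00784), -0.49 for Rpl8, -0.56 for Rplp0, -0.76 for Rps14 and -0.78 for Rpl32, and each passed the test in replicate 3 as well. Rpl4 had 0.09 and was not called in replicate 2 (edgeR adjusted p 0.276). Rpl4 rose by 0.23 in replicate 3 against replicate 1 (standard error 0.065, edgeR adjusted p 0.022), a call that was lost in DESeq2 and in the fit without replicate 2. Without scaling factors the direction of Rps3 reversed in both comparisons, and that of Rpl8 and Rplp0 in replicate 3 against replicate 1. Between replicates 3 and 2, Rpl39l was higher by 5.00 (standard error 0.50), Rpl10l by 1.37, Rpl13a by 0.70, Rpl15 by 0.52 and Rpl27a by 0.48 on the log2 scale in replicate 3. Rps27l, Rps27 and Rpl38 fell by 0.61, 0.61 and 0.43.

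Some members overlapped by another gene were counted in replicate 1 and listed at or near 0 in the other replicates. Rpl13 had 6472 and 7125 UMIs in replicate 1 and 0 in replicates 2 and 3, while the gene Gm20388, which overlaps it on the same strand, had 0 in replicate 1 and 396, 378, 362 and 366 CPM in the other 4 sums. These levels lay near the 359 and 370 CPM of Rpl13 in replicate 1. Rpl24, overlapped by Gm28037, had 149 and 149 CPM in replicate 1 and 9, 6, 2 and 1 UMIs elsewhere. Gm28037 had 0 in replicate 1 and 2.55, 2.38, 4.12 and 1.79 CPM in the other 4 sums, far below the level of Rpl24 in replicate 1. Of 3249 genes with at least 50 CPM in replicate 1, 58 had no count in replicate 2, and 57 of these (98.3%) were overlapped by a gene on the same strand, against 12.3% of the 3249. Reads set aside as multimapping were 14.5% to 20.7% on the plates of replicate 1, 21.2% to 23.0% on those of replicate 2 and 21.2% to 22.9% on those of replicate 3. Reads set aside for other ambiguity were 0.556% to 0.920%, 2.01% to 2.15% and 2.23% to 2.40%.

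Many members share sequence with other annotated genes, whose type was not examined. Of 88 members, 69 had a 50-base stretch of the last 300 nt in common with another gene, and 53 had at least 50% of their stretches in common. In replicate 2 against replicate 1, the median log2 fold change was -0.98 for 49 members with at least 50% shared and -0.97 for 34 with less. In replicate 3 against replicate 1 it was -1.01 and -0.88. The 19 members that share no stretch had medians of -1.05 and -0.65. Over the 83 members tested, Spearman's correlation of the shared percent with the log2 fold change was -0.139 and -0.254. The part that the counting had in these differences was not tested.

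Other genes of the translation machinery were read in the same fits. Of 15 TOP genes outside the family, 12 were lower in replicate 2 and 11 in replicate 3 than in replicate 1, and 0 were higher, with medians of -0.51 and -0.58. Without scaling factors, 5 and 6 were lower and 3 and 3 higher. Eef1a1 had 6823 and 6768 CPM in replicate 1 and 2924 to 3452 in the others. Npm1, a nucleolar chaperone with a TOP mRNA, had 2705 and 2539 CPM in replicate 1 and 3307 to 3895 in the others, with a fitted log2 fold change of 0.16 in replicate 2. Of 37 ribosome biogenesis genes, 11 were higher and 4 lower in replicate 2 than in replicate 1, with 6 and 10 in replicate 3, and without scaling factors 26 were higher and 1 lower, with 18 and 2 in replicate 3. Among 75 mitochondrial ribosomal protein genes tested, 7 were higher and 23 lower, with 6 and 22 in replicate 3, and without scaling factors 30 were higher and 2 lower, with 26 and 5 in replicate 3. These counts stand against 30.3% higher and 20.3% lower of all genes in replicate 2 and 25.1% and 16.1% in replicate 3, and without scaling factors against 41% and 11.7% and 36.4% and 7.15%. The shift between the scalings is the same for each gene, so the direction of a list is not read from these counts. Of 7 TOP regulators, 1 was higher and 1 lower in replicate 2, and 5 higher and 0 lower without scaling factors, and in replicate 3 the counts were 2 and 1, and 3 and 0. Of 3 ribosomal proteins outside the symbol rule that were tested, 2 were lower in replicate 2 and 1 in replicate 3. Rack1, of the small-subunit head, was listed at 3460 to 5025 CPM. After auxin, 0 genes of any of these lists were called with or without the block.

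The members correlated with each other across single cells. The mean Spearman correlation over all pairs of members, on CPM per cell, was 0.178 and 0.163 (replicate 1), 0.215 and 0.173 (replicate 2) and 0.0960 and 0.0976 (replicate 3), over 79 to 83 members with a mean of at least 1 UMI per cell. Pairs of all genes past the same filter had 0.0163 and 0.0142, 0.0409 and 0.0522, and 0.00716 and 0.0248. Members paired with other genes had -0.00908 and 0.000296, 0.0680 and 0.0590, and 0.000889 and 0.0110, below the value for pairs of members in each set. Of 3081 pairs measured in all 6 sets, 1552 (50.4%) were positive in each of them. Small-subunit pairs had a higher mean than large-subunit pairs, with 0.225 against 0.147 and 0.194 against 0.140 (replicate 1), 0.266 against 0.166 and 0.200 against 0.146 (replicate 2) and 0.129 against 0.0641 and 0.136 against 0.0690 (replicate 3). With TOP list genes the members had a mean correlation of 0.0524 to 0.199, with mitochondrial ribosomal proteins -0.00691 to 0.155, and with ribosome biogenesis genes -0.00130 to 0.0862. Pairs within the TOP list had 0.0680 and 0.101 (replicate 1), 0.230 and 0.146 (replicate 2) and 0.0633 and 0.0397 (replicate 3). For 11 mitochondrially encoded genes the values were 0.213 and 0.268, 0.337 and 0.446, and 0.0851 and 0.0482. The latter exceeded pairs of members in replicates 1 and 2, and the TOP list did so in control cells of replicate 2. The genes compared were not matched to the members in level.

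The correlation with auxin depended on the scale. On CPM, auxin minus control was -0.0144, -0.0427 and 0.0016 in replicates 1 to 3, and 44.4%, 33.5% and 50.3% of member pairs were higher in auxin cells. The replicate 3 value was -0.0483 with its 2 unsettled plates placed as annotated, and 0.0230 with them placed as in the source values. On raw UMI counts auxin minus control was 0.0286, 0.0165 and 0.156, and 66.0%, 67.1% and 88.7% of pairs were higher. Raw counts also raised the level of the correlation itself to between 0.362 and 0.673, a scale on which the UMI count of the cell enters each gene. In replicate 2 the plates of 1 condition differed as much as the conditions did, with 0.152 to 0.275 on its 4 control plates and 0.130 to 0.210 on its 4 auxin plates. In replicate 1 the values did not overlap, with 0.190 and 0.197 on the control plates and 0.184 and 0.169 on the auxin plates.

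**Figure D4:**
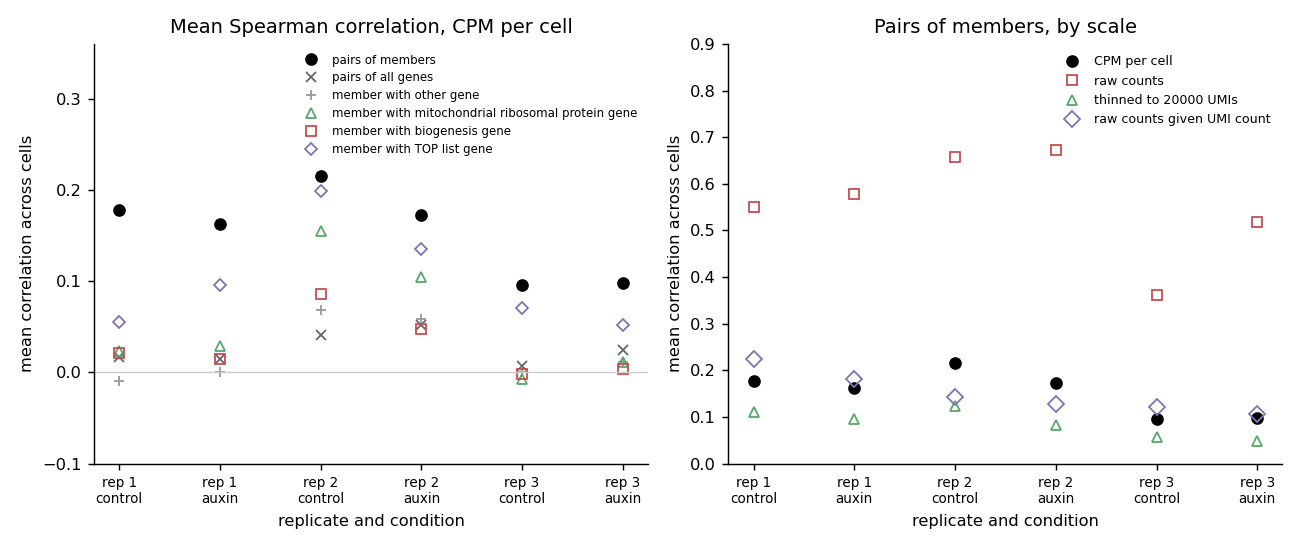
Mean Spearman correlation across cells (y axis) by replicate and condition (x axis). Left, on CPM per cell, for pairs of members, pairs of all genes, and members paired with other genes or with the genes of 3 lists; right, for pairs of members on 4 scales. Pairs of members stand above the other kinds of pair drawn in each set, and raw counts are the scale on which auxin lies above control in all 3 replicates.

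The members followed the family to unequal extents. Mean correlations with the other members were highest for Rplp1 (0.264), Rpl32 (0.260) and Rps26 (0.250), and lowest for Rpl5 (0.00956), Rpl10l (0.0332), Rpl13 (0.0336), Rpl10 (0.0373) and Rpl39l (0.0469). These means cover the sets in which the member had at least 1 UMI per cell, which were 2 sets (replicate 1) for Rpl13, 4 for Rpl10l and Rpl39l and 6 for Rpl5 and Rpl10, and the mean over all pairs differed between replicates as given above. Rpl5 binds the 5S ribosomal RNA together with Rpl11, and in these cells it had 19.6 to 26.0 CPM and correlations from -0.0398 to 0.0642 in the 6 sets. The median over 83 members was 0.161, and 65 members exceeded 0.1. Members with more counts had higher values, with a Spearman correlation of 0.806 between mean CPM and mean correlation over the 83 members. In sparse counts a weak correlation is no finding, so the low end of this order is given as values only.

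The pair with the highest mean correlation was Rplp1 and Rps26, with 0.600 and 0.729 (replicate 1), 0.606 and 0.555 (replicate 2) and 0.465 and 0.316 (replicate 3). Rpl23 and Rpl26, a pair on chromosome 11, had 0.653 and 0.596, 0.526 and 0.512, and 0.507 and 0.375. Rplp1 and Rplp2, whose proteins form a heterodimer, had a mean of 0.476, below Rplp1 with Rps21 (0.503), Rpl41 with Rps26 (0.491) and Rpl26 with Rpl32 (0.482), and Rplp0 with Rps3 reached 0.469. Each of these pairs was positive in all 6 sets. The lowest pair mean was that of Rpl22l1 with Rpl37a, at -0.108.

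The study compares genes on the same chromosome with genes on different ones, and the family gives 211 to 217 pairs on the same chromosome. Their mean correlation exceeded that of pairs on different chromosomes by 0.0770 and 0.0847 (replicate 1), 0.0359 and 0.0271 (replicate 2) and 0.0366 and 0.0367 (replicate 3). Over all genes the same difference was 0.00350 to 0.0109 in the 6 sets. Those genes were not matched to the members in level, so the 2 ranges are not like for like. Chromosomes differed in this excess. The 7 members on chromosome 11 (Rpl19, Rpl23, Rpl23a, Rpl26, Rpl27, Rpl38 and Rps27a) had a mean of 0.458 and 0.402 among themselves in replicate 1, against 0.202 and 0.191 with members elsewhere. In replicate 2 the values were 0.262 and 0.258 against 0.202 and 0.163, and in replicate 3 they were 0.115 and 0.0829 against 0.0743 and 0.0548. The chromosome 11 excess was larger in replicate 1 than in replicates 2 and 3. The 14 members on chromosome 7 had 0.280 and 0.275 against 0.207 and 0.187 in replicate 1, and 0.146 and 0.174 against 0.108 and 0.119 in replicate 3. The 3 members on chromosome 1 had 0.349 and 0.298 against 0.0923 and 0.134 in replicate 3, a larger excess than that of chromosome 11 there. The 4 members on chromosome 2 had no excess and lay below their value with members elsewhere in each of the 6 sets, with 0.0134 and 0.0157 against 0.0856 and 0.0626 in replicate 3. With cells thinned to 20000 UMIs the mean excess over all same-chromosome pairs was 0.0310, against 0.0497 on all UMIs.

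The share of the other genes of chromosome 11 correlated with that of these members. In replicate 1 they took 8.08% and 8.17% of mouse UMIs at the median, with a coefficient of variation over cells of 18.0% and 16.6%, and this share correlated at 0.596 and 0.385 with the members' part of the ribosomal protein UMIs. In replicate 3 the coefficients of variation were 7.82% and 10.3%, and the correlations 0.383 and 0.356. In replicate 2 the coefficients of variation were 14.2% and 14.1%, and the correlations 0.277 and 0.483. Chromosome 1 had 0.585 and 0.559 in replicate 3, and chromosome 18, with 2 members, 0.569 and 0.653 in replicate 1. Chromosome 6, with 2 members, had 0.525 and 0.469 (replicate 1), 0.423 and 0.422 (replicate 2) and 0.715 and 0.540 (replicate 3). Chromosome 8, with 2 members, had 0.359 and 0.638 in replicate 1, and chromosome 12, with 3 members, had 0.0571 and 0.0455 there. For chromosome 7 the same correlations were -0.0402 and 0.129 (replicate 1), 0.338 and 0.337 (replicate 2) and 0.0903 and 0.163 (replicate 3). The part of this variation in the correlation among the members was not tested.

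**Figure D5:**
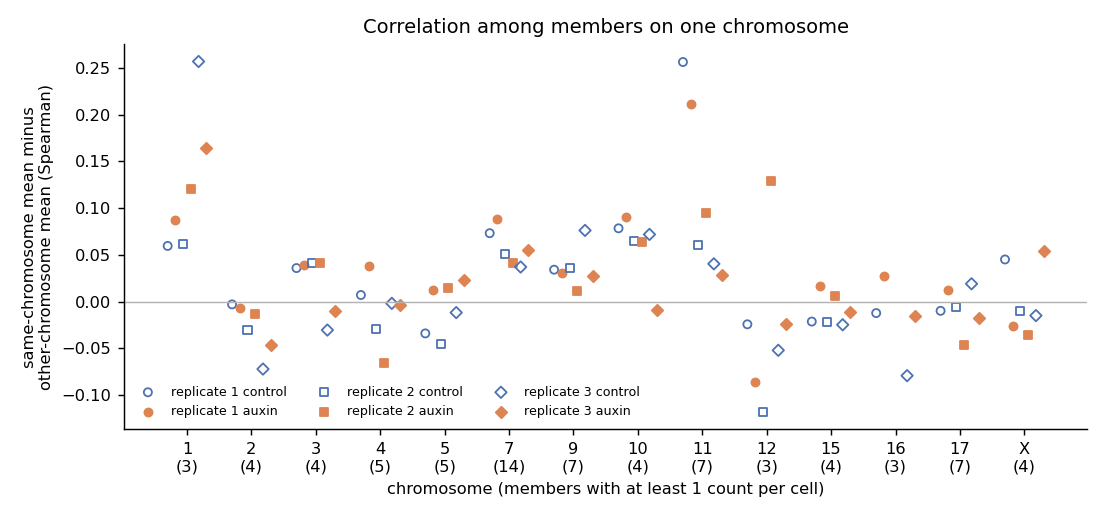
Mean Spearman correlation among members on 1 chromosome minus that of the same members with members on other chromosomes (y axis), for chromosomes with at least 3 members (x axis, number of members in parentheses). Open symbols are control and filled symbols auxin, and circles, squares and diamonds are replicates 1, 2 and 3. Chromosome 11 stands highest in replicate 1, and chromosomes 1, 7, 9 and 11 are above 0 in each of the 6 sets.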

How the data were processed

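For each of 3 replicates the authors deposited a table of UMI counts, not normalised, with genes in rows and wells in columns, made from reads aligned to mm10 per the labels. The aligner and gene annotation are not given in the sources used here. The deposited tables also hold the read counts per plate, the fraction of reads saturated per plate, and the percent of spike-in UMIs per well. The 52636 mouse genes were kept, and 92 spike-in and 11 transgene rows were left out. Condition came from the deposited plate annotation, in which plates of replicate 1 are named for presence or absence of RAD21. No doublet caller was run, since cells had been sorted into wells.

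Counts of cells with more than 2600 detected genes were summed per replicate and condition and tested with edgeR 4.0.16 (R 4.3.3, TMM, filterByExpr, quasi-likelihood test, Benjamini-Hochberg over all genes tested, threshold 0.05), without a block, with DESeq2 1.42.0 as an alternative. The study describes the replicates as biological and as repeats of the whole procedure. Deviations of the 2 sums of a replicate correlated at 0.866, 0.824 and 0.666, so that the numbers pair the sums. Correlations were Spearman's on CPM per cell within a set, for genes with a mean of at least 1 UMI in both conditions of the replicate. Scripts were tested on simulated data. Sequences came from RefSeq starts, and overlaps and shared 50-base stretches from GENCODE. The members and lists were chosen with earlier results of these data known. Members were named by level, by size of change and by correlation (the extremes of each) and as paralog pairs, with others added after their values were seen. A few genes that these rules would name are not reported here. Intervals of counting cover no other error.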

Additional observations from a re-analysis of the deposited data

Results flagged for a closer look

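The auxin minus control difference of the ribosomal protein share was flagged because replicate 3 moved opposite to replicates 1 and 2, with 0.633 percentage points against -0.428 and -0.326. The difference between replicates was not tested. The 2 plates of replicate 3 with unsettled condition, which enter no comparison, had median shares of 6.69% and 6.70%.

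Over the 4 control or 4 auxin plates of replicate 2, 5 of 71 groups of plate values had 1 plate far from the others, where chance flags about 1 in 20 groups. The statistic is the gap of that plate to its nearest neighbour divided by the whole range. It was 0.928 for Rpl39l in control plates and 0.982 for Rpl39l in auxin plates, where 1 plate had 4.66 CPM and the others at most 0.08 CPM. For Rps12l1 in auxin plates it was 1, a single plate having any count, at 0.083 CPM. The statistic is always 1 in that case, so this flag carries no information. For Rps3 in auxin plates it was 0.944, with 4091 CPM on 1 plate and 4414 to 4433 on the others, and for Rps6 in auxin plates it was 0.84.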

How the results depend on the processing

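Over the alternatives run, the 0 members called after auxin stayed at 0 in each fit, with or without the replicate block, in DESeq2, without each replicate and with the plates of replicate 3 placed either way. The replicate block raised the number of members at an unadjusted p under 0.05 from 0 to 7 and changed no call. The auxin minus control difference of the share ranged from -0.377 to 0.153 percentage points when 1 replicate was left out, the lowest value without replicate 3, the mean correlation difference from -0.0286 to -0.0064, and the same-chromosome excess from 0.0341 to 0.0588, which was 0.0310 with cells thinned to 20000 UMIs, against 0.0497 on all UMIs. The mean correlation difference was -0.0185 on CPM and 0.067 on raw counts, and stayed negative on the other scales. On CPM it was -0.0351 with the plates of replicate 3 as annotated and -0.0114 with them as in the source values. The members called between replicates 3 and 2 numbered 9, and 20 without the filter on low counts, 18 with counts summed per plate and 14 with the plates of replicate 3 as annotated. The cause was not tested. Without scaling factors, replicate 2 against replicate 1 gave 0.013 for Rps26 and 0.062 for Rps3, and replicate 3 against replicate 1 gave 0.10 for Rpl8, 0.020 for Rplp0 and 0.10 for Rps3 (log2), all reversed. Of the other values for named members, 1140 kept direction and call, 17 passed and 11 lost the threshold. Within-plate correlations, the trans mean of the same members, unscaled library sizes and the block with left-out replicates or placed plates were chosen after seeing the data. Counts near 0 limit Rpl3l and the pseudogenes.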
